A study of Mus musculus with 6 samples.

Results

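The genes described here are Mbp, Cnp, Mag, Mog, Mobp, Cldn11, Mal and Ugt8a, which encode parts of the myelin sheath or enzymes that make it, and Myrf, the transcription factor that drives them in oligodendrocytes. The 9 genes were chosen by name, with earlier results of these data known, so counts of those that rose are not an independent result. Each matched 1 of the 55802 genes in the deposited tables. Myelin is the insulating membrane that oligodendrocytes wrap around axons in the brain. Its genes stay low in neural stem cells and oligodendrocyte precursors and are switched on as a precursor leaves the cell cycle and differentiates. SOX10 activates Myrf, and MYRF protein, made as a membrane protein that cuts itself to free a DNA-binding part, then binds the myelin genes together with SOX10. The subventricular zone (SVZ), the stem cell niche along the lateral ventricles, gives rise to some oligodendrocytes as well as to neurons.

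RNA came from primary SVZ cells of adult C57BL/6 mice, which the labels call neural stem cells and which were cultured in a Neurobasal-type medium with B27. All cultures were infected for 24 h with an adenovirus (ADV). The 3 control libraries are wild-type cells given ADV-GFP, which carries green fluorescent protein alone, and the 3 SETD4 OE libraries are cells given ADV-SETD4-GFP, which adds SETD4, a SET domain methyltransferase. The comparison asks what raised SETD4 does to the transcriptome of these cells. Whether the infected cells were sorted, and whether the replicates were separate cultures or animals, is not given in the sources used here, so the p-values measure only the spread between these samples.

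Values are FPKM, in which reads are scaled by gene length and library size, so levels can be compared between genes. The libraries held 14924273 to 18078717 recovered reads. These totals differed from the library size behind the FPKM values, whose definition is not given in the sources used here, by 0.634% to 2.75% in the controls and by -5.04% to -3.69% in SETD4 OE. Setd4 was at 0.952, 0.972 and 1.53 FPKM in the controls and at 296, 346 and 333 FPKM in SETD4 OE, a value that does not separate viral from endogenous transcripts. The labelled cell type was checked against 9 neural stem cell markers, all of which were tested (6 rose and 3 fell). They included Sox2 at 146 to 200 FPKM and Nes, an intermediate filament of progenitors, at 117 ± 16.0 FPKM in controls against 42.7 ± 5.39 FPKM in SETD4 OE (mean ± SD, n = 3 each). Nes had the largest fall of the list. The largest rise was in Prom1, from 2.36 ± 0.337 to 6.15 ± 0.555 FPKM. Mitochondrially encoded genes held 3.78% of the reads in control replicate 1, against 2.45% in both other controls and 3.52% to 3.73% in SETD4 OE.

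Sequences upstream of the start sites are shown because MYRF and SOX10 are the factors the myelin genes are known to answer to. A promoter entry was found for 7 of the 9 genes in the RefSeq table (build GRCm38.p6), and none is shown for Mbp and Myrf. The 250 bases before the start site farthest upstream were searched on both strands for CTGGCAC and CTGGTAC, the letters MYRF is known to prefer, and for ACAAAG and ACAATG, which SOX proteins bind. Capitals mark the matches, no 2 of which overlap. A match is a description of letters and not a measured binding site. The MYRF-type letters occurred in Cnp (chr11:100574689-100574938, plus strand), Mag (chr7:30914923-30915172, minus strand) and Mog (chr17:37023399-37023648, minus strand), where CTGGTAC lies on the other strand and reads GTACCAG. They occurred in 5.92% of all 32817 windows of this length in the table, and CTGGCAC alone in 4.19%.
Cnp: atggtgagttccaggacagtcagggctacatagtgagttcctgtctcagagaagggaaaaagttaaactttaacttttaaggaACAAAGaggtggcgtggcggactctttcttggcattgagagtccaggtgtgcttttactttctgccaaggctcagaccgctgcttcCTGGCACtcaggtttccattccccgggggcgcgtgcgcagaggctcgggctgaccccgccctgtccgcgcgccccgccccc
Mag: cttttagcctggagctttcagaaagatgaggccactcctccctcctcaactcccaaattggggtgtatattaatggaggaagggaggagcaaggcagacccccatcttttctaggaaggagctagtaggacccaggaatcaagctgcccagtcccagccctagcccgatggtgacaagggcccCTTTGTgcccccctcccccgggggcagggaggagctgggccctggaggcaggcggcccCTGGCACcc
Mog: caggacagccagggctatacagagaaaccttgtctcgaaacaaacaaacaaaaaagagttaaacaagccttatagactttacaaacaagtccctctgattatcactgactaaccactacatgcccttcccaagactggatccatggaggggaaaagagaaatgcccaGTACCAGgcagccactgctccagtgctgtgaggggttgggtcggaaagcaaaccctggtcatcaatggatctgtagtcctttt
In Cnp the match lay 75 to 81 bases before the start, in Mag 3 to 9 bases and in Mog 77 to 83 bases. For Mag the table lists 3 windows, and the one shown has the farthest upstream start. Cnp and Mag also held 1 SOX-type match each, a feature of 25.2% of all windows. Mobp (chr9:120149492-120149741, plus strand) had 6, all of them ACAAAG on the other strand and therefore printed as CTTTGT.
Mobp: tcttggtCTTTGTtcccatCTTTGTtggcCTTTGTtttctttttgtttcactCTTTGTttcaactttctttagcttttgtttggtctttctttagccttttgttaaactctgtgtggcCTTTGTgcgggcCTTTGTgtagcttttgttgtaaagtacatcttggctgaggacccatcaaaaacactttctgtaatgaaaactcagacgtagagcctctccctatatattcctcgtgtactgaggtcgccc
No other of the 32817 windows held 6 or more SOX-type matches, and 0.0213% held at least 5. Mobp is shown because of this count, a choice made after the matches were seen. The windows of Cldn11, Ugt8a and Mal held neither set of letters.

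Every one of the 9 genes was higher in SETD4 OE than in the controls, by 1.85 times for Cnp to 3.64 times for Mog in mean FPKM, with a median of 2.43 times. For all 9 the 3 SETD4 OE values lay above the 3 control values, without overlap. The same held for 29.1% of the genes tested, and for 34.5% of genes with a mean of 0.5 to 5 FPKM, the range that holds 8 of the 9. In the test across all genes (limma on log2(FPKM + 1), for genes averaging 1 FPKM or more) 7 of the 9 genes were tested and all 7 were called higher at an adjusted p under 0.05. By the same rule 26.0% of the 12994 tested genes were called higher and 33.9% lower, 60.0% together (3384 and 4406, or 4405 and 3259 with upper-quartile scaling, which moved the median log2 fold change of all tested genes from -0.06 to 0.07). With equal sums of reads in place of the authors' library size, 3887 genes were called higher and 3766 lower, and the same 7 of the 9 genes stayed called. Among tested genes averaging 1 to 5 FPKM, 30.9% were called higher and 22.0% lower. Of the 7, Ugt8a, Myrf, Mal and Mag had control means under 1 FPKM and reached the expression threshold only through SETD4 OE. Mog and Mobp did not reach it. When all 30911 genes with a read were tested, all 9 genes were called higher, where 12.9% of these genes were, and 23.0% of those with a mean of 0.5 to 5 FPKM.

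**Figure D1:**
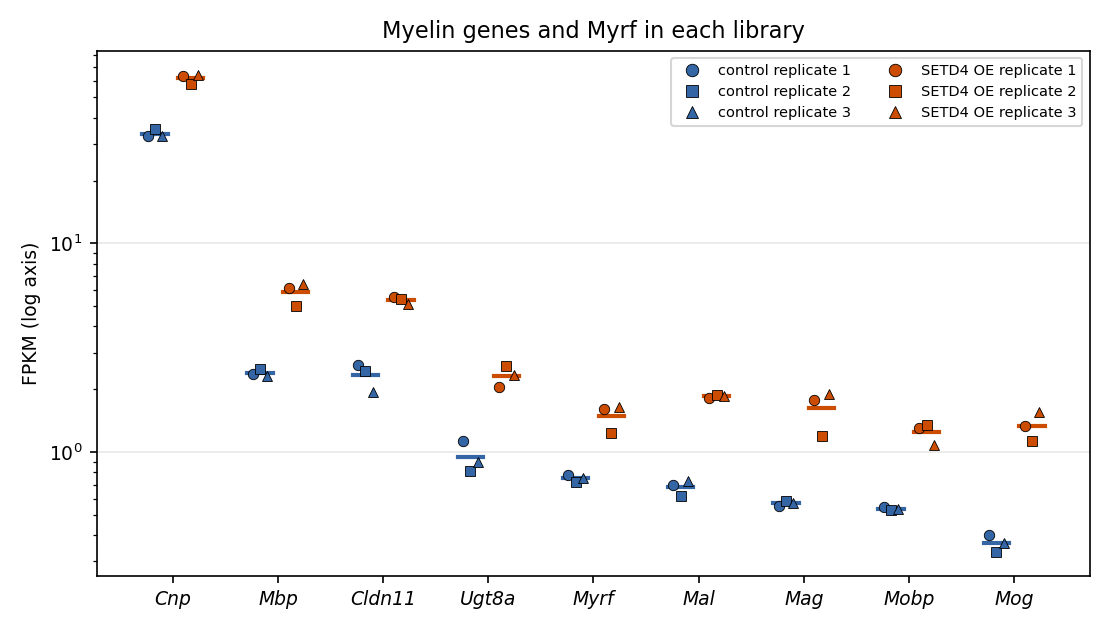
FPKM of the 9 genes in each of the 6 libraries on a log axis, with control libraries in blue, SETD4 OE libraries in orange, a marker shape per replicate and a bar at the mean of 3. Within each gene the orange points lie above the blue ones, and Cnp stands far above the other genes in both groups.

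The levels themselves were low for most of these genes. The 9 summed to 42.0 ± 1.57 FPKM in controls against 82.9 ± 4.52 FPKM in SETD4 OE, and Cnp alone made up 79.5% and 74.6% of these sums. Without Cnp the other 8 summed to 9.09, 8.57 and 8.11 FPKM in control replicates 1, 2 and 3 and to 21.5, 19.8 and 21.9 FPKM in SETD4 OE, or 2.45 times the control mean. In bulk samples a change in the number of cells that express a gene and a change in its RNA per cell cannot be told apart. Fold changes on the log2(FPKM + 1) scale understate the change of low genes, so those of the 9 genes are given beside the value from limma-voom, which models the recovered reads.

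Myrf (ENSMUSG00000036098; mm39 chromosome 19, 10185636 to 10218112, minus strand) was at 0.780, 0.717 and 0.749 FPKM in the controls and at 1.61, 1.24 and 1.65 FPKM in SETD4 OE. These values rest on 102 to 108 reads per control library and 165 to 235 per SETD4 OE library. The lowest SETD4 OE value, in replicate 2, was 1.59 times the highest control value. On the log2 scale the difference was 0.51 with an SE of 0.11 (adjusted p = 0.004956, limma), the smallest among the 9 genes on this scale, and 1.07 by limma-voom (95% interval 0.73 to 1.42).

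Mbp, Mobp and Mal encode proteins of compact myelin. Mbp (ENSMUSG00000041607; chromosome 18, 82493271 to 82603762, plus strand) makes myelin basic protein, which holds the cytoplasmic faces of the membrane together. It was at 2.38, 2.52 and 2.32 FPKM in the controls and at 6.11, 5.01 and 6.39 FPKM in SETD4 OE. The lowest SETD4 OE value was again that of replicate 2. Its log2 fold change came to 1.00, with an SE of 0.09 (adjusted p = 9.34e-05, limma), and 1.35 by limma-voom. The Mbp locus is also known to make Golli transcripts in other cell types, and a value per gene does not separate them. The pseudogene Rpl21-ps8 lies within Mbp on the opposite strand, with 896 reads against 3388 of Mbp over the 6 libraries. It went the other way, from a mean of 23.6 to 14.2 FPKM.

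Mobp (ENSMUSG00000032517; chromosome 9, 119978773 to 120010550, plus strand), the myelin-associated oligodendrocytic basic protein, was at 0.547, 0.531 and 0.532 FPKM in the controls and at 1.31, 1.35 and 1.09 FPKM in SETD4 OE. The 3 controls were nearly equal, with a coefficient of variation of 1.63%, but rested on only 58 to 64 reads each. Such closeness is therefore no measure of precision. The lowest SETD4 OE value was 1.99 times the highest control value. Mobp did not reach the expression threshold. Tested with all genes, it differed by 0.55 on the log2 scale with an SE of 0.10 (adjusted p = 0.007922, limma; 1.29 by limma-voom).

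Mal (ENSMUSG00000027375; chromosome 2, 127475146 to 127498615, minus strand) encodes a proteolipid of membrane rafts that is also made by some epithelia and T cells. It was at 0.697, 0.614 and 0.724 FPKM in the controls and at 1.82, 1.88 and 1.86 FPKM in SETD4 OE. The SETD4 OE libraries were closer together for Mal than for any other of the 9 genes, with a coefficient of variation of 1.43%. They held only 80 to 86 reads of Mal each, so this closeness is no measure of precision. On the log2 scale the difference was 0.77 with an SE of 0.09 (adjusted p = 3.008e-04, limma), and 1.53 by limma-voom.

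Cnp, Mag and Mog belong to the non-compact and outer parts of the sheath. Cnp (ENSMUSG00000006782; chromosome 11, 100465730 to 100482555, plus strand) encodes a phosphodiesterase that keeps cytoplasmic channels of myelin open, and it is already expressed in precursors. It was at 32.5, 35.2 and 32.6 FPKM in the controls and at 63.3, 58.0 and 64.3 FPKM in SETD4 OE, with 1887 to 2253 and 3279 to 3898 reads. The 2 groups were well apart, and Cnp had the smallest ratio of the 9 genes. Its log2 fold change came to 0.87, with an SE of 0.06 (adjusted p = 3.522e-05, limma), and 0.97 by limma-voom. The gene Dnajc7 shares 8912 bases of its span on the opposite strand and held 14783 reads against 16849 of Cnp. No strand setting is given, so reads of shared exons cannot be assigned. Dnajc7 was at 18.8 FPKM in controls against 15.9 FPKM in SETD4 OE.

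Mag (ENSMUSG00000036634; chromosome 7, 30598601 to 30614298, minus strand) encodes the myelin-associated glycoprotein, which faces the axon. It was at 0.552, 0.586 and 0.571 FPKM in the controls and at 1.77, 1.20 and 1.90 FPKM in SETD4 OE. The spread in SETD4 OE was the widest of the 9 genes, with a coefficient of variation of 23.0%, and replicate 2 was the low one. On the log2 scale the difference was 0.73 with an SE of 0.13 (adjusted p = 0.002342, limma), and 1.56 by limma-voom. Mog (ENSMUSG00000076439; chromosome 17, 37321635 to 37334290, minus strand) encodes a glycoprotein on the outermost layer of the sheath and is turned on late in differentiation. It was the lowest of the 9 genes in the controls, at 0.403, 0.334 and 0.369 FPKM from 10 to 11 reads per library. In SETD4 OE it reached 1.34, 1.13 and 1.55 FPKM from 30 to 44 reads. It did not reach the expression threshold. Tested with all genes, it differed by 0.77 on the log2 scale with an SE of 0.10 (adjusted p = 0.002899, limma). By limma-voom it was 1.90, with a 95% interval of 1.10 to 2.70, the widest interval of the 9.

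Cldn11 (ENSMUSG00000037625; chromosome 3, 31204069 to 31218473, plus strand) encodes the claudin that seals the membrane layers of myelin, and is also made by Sertoli cells and by cells of the meninges. It was at 2.60, 2.46 and 1.95 FPKM in the controls and at 5.52, 5.40 and 5.10 FPKM in SETD4 OE. Here the controls spread more than the SETD4 OE libraries, with coefficients of variation of 14.7% and 4.02%. Its log2 fold change came to 0.93, with an SE of 0.09 (adjusted p = 1.253e-04, limma), and 1.27 by limma-voom. Ugt8a (ENSMUSG00000032854; chromosome 3, 125658920 to 125732268, minus strand) encodes the enzyme that makes galactosylceramide, the main glycolipid of myelin. It was at 1.13, 0.814 and 0.901 FPKM in the controls and at 2.05, 2.58 and 2.34 FPKM in SETD4 OE. Control replicate 1 was the high control and still lay below every SETD4 OE library. On the log2 scale the difference was 0.77 with an SE of 0.11 (adjusted p = 6.883e-04, limma), and 1.39 by limma-voom.

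**Figure D2:**
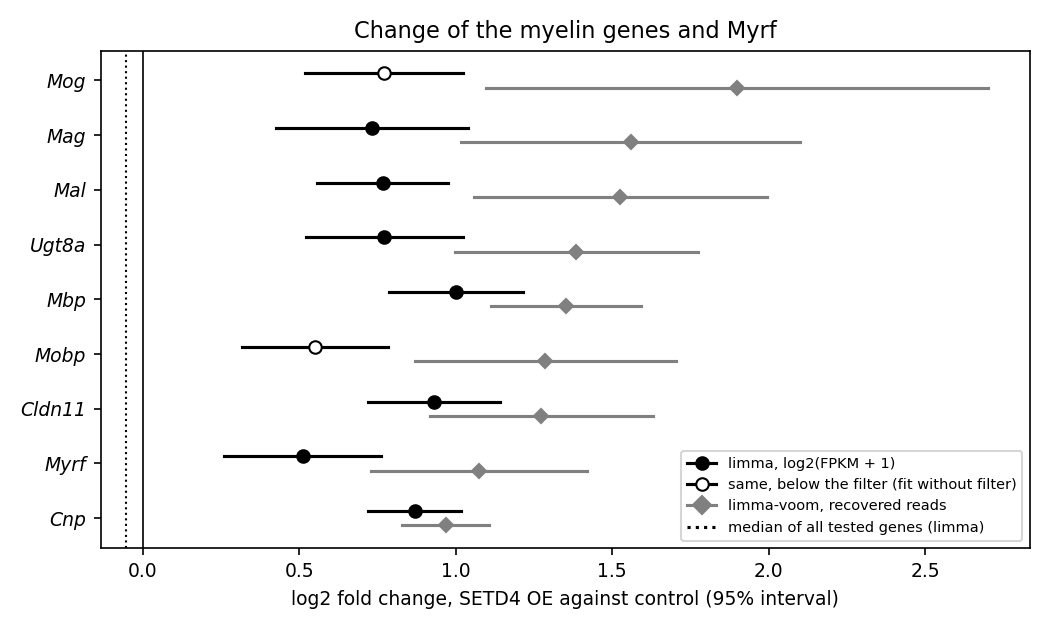
Log2 fold change of each gene in SETD4 OE against control with its 95% interval, from limma on log2(FPKM + 1) in black (open circles for Mog and Mobp, below the expression threshold) and from limma-voom on recovered reads in grey. All intervals lie above 0, and the dotted line marks the median of all tested genes at -0.06.

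The order of the levels was alike in both groups at the top and less clear below. Cnp came first, followed by Mbp and Cldn11, whose ranges overlapped in both groups, and then Ugt8a. In the controls Myrf and Mal overlapped, and Mag, Mobp and Mog followed in separate ranges. The lowest Mag value (0.552 FPKM, 36 reads) was barely above the highest Mobp value (0.547 FPKM, 60 reads), so their order is not settled. In SETD4 OE the 5 lowest genes, Mal, Mag, Myrf, Mog and Mobp, each overlapped the next in the order. Among the SETD4 OE libraries, replicate 2 was the lowest for 5 genes (Mbp, Cnp, Mag, Mog and Myrf) and the highest for 3 (Mobp, Mal and Ugt8a). Replicate 3 was the highest for the first 5.

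The tested protein-coding genes nearest to Myrf were Dmpk, Islr, Rsad1, Sfxn5 and Dcaf12l1, out of 11261 compared. Nearness was the mean absolute difference, over the 6 libraries, of log2(FPKM + 1) less the control mean, and it was 0.0260 to 0.0357 for these 5 genes. Their log2 fold changes were 0.49 to 0.56 on this scale, against 0.51 for Myrf. They were expressed at higher levels, and their means rose by 1.48 to 1.64 times, less than the 2.00 times of Myrf. By limma-voom the changes were 0.65 to 0.79, against 1.07 for Myrf, so the likeness holds on the log2(FPKM + 1) scale and not for the ratios. The pattern is common, since 165 genes lay within 2 times the distance of the fifth.

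Regulators of myelin transcription did not move in 1 direction. Of 19 activators 17 were tested, and 7 rose, 6 fell and 4 were not called. Of all tested genes 26.0% were called higher and 33.9% lower. The median log2 fold change of the activators was 0.02 (-0.06 over all tested genes), or 0.10 by limma-voom (0.01 over all tested genes). Sox10, the direct activator of Myrf, was at 2.50, 2.20 and 2.72 FPKM in the controls and at 7.66, 6.92 and 8.62 FPKM in SETD4 OE (log2 fold change 1.33, adjusted p = 2.978e-05, limma). As for Myrf, the lowest SETD4 OE value was in replicate 2 and the highest in replicate 3. Nfatc2, a calcium-regulated factor that acts with SOX10, rose from 0.647 ± 0.117 to 2.11 ± 0.187 FPKM, and the chromatin remodeller Chd7 from 6.77 ± 0.503 to 10.8 ± 0.466 FPKM. Tcf7l2, a Wnt effector of early differentiation, was at 3.49 ± 0.128 and 4.58 ± 0.411 FPKM (log2 fold change 0.31, adjusted p = 0.009161, limma; 0.47 by limma-voom).

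Olig2, Nkx2-2 and Hdac1 had the largest falls of the list. Olig2, which sets up the oligodendrocyte lineage, was at 302, 360 and 355 FPKM in the controls and at 132, 119 and 133 FPKM in SETD4 OE (log2 fold change -1.40, adjusted p = 1.963e-05, limma). Olig1 fell from 888 ± 43.4 to 570 ± 28.1 FPKM and remained the most abundant of the regulators in both groups. Nkx2-2, a homeodomain factor of differentiating precursors, fell from 5.79 ± 0.343 to 3.14 ± 0.167 FPKM. The histone deacetylase gene Hdac1 fell from 43.1 ± 3.06 to 26.5 ± 1.13 FPKM. Zfp24 and Nkx6-2, factors of later myelination, were not called, with log2 fold changes of 0.02 (SE 0.06) and 0.07 (SE 0.17), or 0.10 and 0.17 by limma-voom. Nkx6-2 was at 3.31 FPKM in control replicate 1 and at 5.19 and 5.44 FPKM in the other controls.

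**Figure D3:**
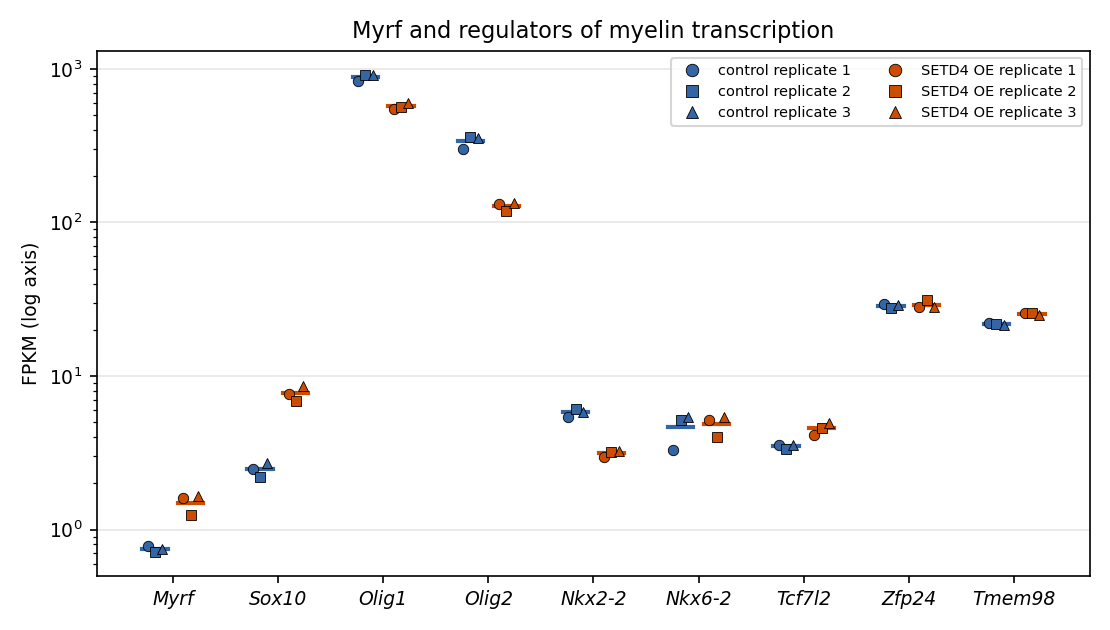
FPKM of Myrf, of 7 regulators that promote oligodendrocyte fate or myelin transcription, and of Tmem98, which holds MYRF back, in each library on a log axis, with control in blue, SETD4 OE in orange and a bar at each mean. Myrf and Sox10 are higher in every SETD4 OE library, Olig1, Olig2 and Nkx2-2 are lower in every one, and Zfp24 and Nkx6-2 overlap.

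Genes that hold back differentiation were mostly higher, with 10 of 16 called higher and 3 lower, against 26.0% and 33.9% of all tested genes. Their median was 0.31 (0.44 by limma-voom). Id4, an inhibitor of bHLH factors such as OLIG2, rose from 6.16 ± 0.252 to 32.2 ± 1.68 FPKM, and Hes5, a Notch effector, from 6.96 ± 1.54 to 31.4 ± 3.68 FPKM. Gpr17, a receptor of committed precursors that blocks their maturation, was at 2.87, 3.03 and 2.97 FPKM in the controls and at 14.3, 14.1 and 14.4 FPKM in SETD4 OE. Tmem98, which binds MYRF and blocks its cleavage, rose slightly, from 21.8 ± 0.480 to 25.5 ± 0.605 FPKM (log2 fold change 0.22, adjusted p = 0.007265, limma). Those that fell were the Notch ligand gene Jag1, from 19.9 ± 0.373 to 5.34 ± 0.436 FPKM, Hes1 (log2 fold change -1.17) and Sox11 (-0.46).

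Other genes of myelin and mature oligodendrocytes were higher in 13 of the 20 tested and lower in 5. Over all tested genes 26.0% were called higher and 33.9% lower. The list median was 0.61 (0.99 by limma-voom), and 17 of the 37 listed genes did not reach the expression threshold. Gjc3, a connexin of myelinating glia, rose from 0.578 ± 0.0956 to 5.69 ± 0.629 FPKM, which is 9.83 times. Omg, the oligodendrocyte myelin glycoprotein, rose from 4.29, 3.09 and 2.99 to 15.6, 20.7 and 14.8 FPKM, and Enpp2, the secreted enzyme autotaxin, from 14.9 ± 1.01 to 44.3 ± 0.801 FPKM. The largest falls were in Anln, Car2 and Pmp22, with log2 fold changes of -1.28, -1.21 and -0.80. Anln encodes anillin, which also acts in cytokinesis, Car2 a carbonic anhydrase of many cell types, and Pmp22 a protein of peripheral myelin that is also found outside glia. Opalin, Ermn, Aspa, Klk6 and Hapln2, which mark late myelinating oligodendrocytes and were picked after their values were seen, were at or under 0.314 FPKM in every library, with at most 27 reads. At these low levels, Opalin, Ermn, Aspa and Hapln2 were still higher in each SETD4 OE library than in each control, with means 2.29, 2.38, 2.25 and 5.59 times those of the controls, while Klk6 overlapped. The gaps were small in reads. For Opalin the highest control and the lowest SETD4 OE value both rested on 5 reads. They rested on 7 and 8 reads for Ermn, 2 and 4 for Hapln2 and 11 and 19 for Aspa. How many of all genes this low separate in the same way was not counted. Tested with all genes, Aspa was called higher (adjusted p = 0.02869, limma) and Opalin, Ermn, Klk6 and Hapln2 were not (adjusted p = 0.2307, 0.1899, 0.9894 and 0.07038, limma).

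In the list of myelin lipid genes 6 of 12 tested rose and 3 fell (3 and 3 among those averaging 5 FPKM or more). The shares over all tested genes were 26.0% and 33.9%, and the list median was 0.11 (0.20 by limma-voom). Gal3st1, which adds sulfate to the galactosylceramide that UGT8 makes, rose from 0.737 ± 0.133 to 2.47 ± 0.0551 FPKM. The lysosomal genes Arsa and Psap, which act in the breakdown of this sulfatide, had log2 fold changes of 0.87 and 0.66. Kdsr, an enzyme of ceramide synthesis, was also higher (0.34, adjusted p = 0.00946, limma), and it was named after its value was seen. Those that fell were Cers2, a ceramide synthase (-0.71), Elovl1, a fatty acid elongase (-0.52), and Sptlc2, a subunit of serine palmitoyltransferase (-0.25, which missed the threshold with upper-quartile scaling at an adjusted p of 0.1004, limma).

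Of the 9 tested genes of premyelinating oligodendrocytes 3 rose and 2 fell, with 5 and 1 under upper-quartile scaling and under limma-voom. In the main test 26.0% of all tested genes were called higher and 33.9% lower. The list median was 0.18 (0.35 by limma-voom). Enpp6, an early marker of newly forming oligodendrocytes, rose from 0.462 ± 0.0978 to 2.10 ± 0.0755 FPKM, Bcas1 from 7.45 ± 0.423 to 16.5 ± 0.880 FPKM and the tetraspanin gene Cd82 from 1.64, 1.65 and 1.21 to 2.93, 3.32 and 3.40 FPKM. The kinase gene Fyn, which promotes translation of Mbp RNA, fell from 69.6 ± 4.51 to 50.8 ± 0.919 FPKM. Chn2 had a log2 difference of -0.21 (SE 0.07, adjusted p = 0.02971, limma). It missed the threshold in 10 of 16 alternatives, over which its adjusted p ranged from 0.02377 to 0.3187. The adjusted p for Chn2 was 0.07206 without the first control library and 0.0822 without the second, and it was 0.08766 and 0.08375 when the first or the second SETD4 OE library was left out.

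**Figure D4:**
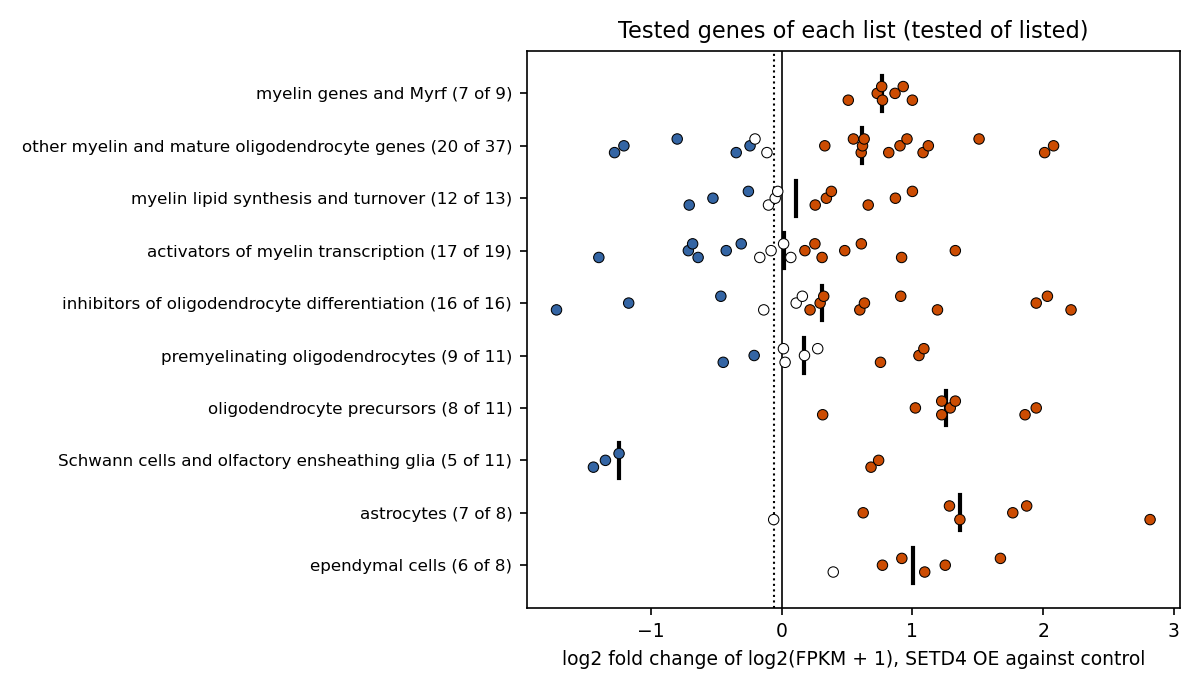
Log2 fold changes of the tested genes in each list, with orange points called higher, blue points called lower, white points not called, a black bar at the list median and a dotted line at the median of all tested genes. The 7 tested genes of the myelin and Myrf set and the 8 tested precursor markers lie to the right of 0, while the activators and the lipid genes lie on both sides.

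Markers of oligodendrocyte precursors, astrocytes and ependymal cells were mostly higher, as the myelin genes were. The sums of the other marker lists were lower in SETD4 OE. Of 11 markers of oligodendrocyte precursors 8 were tested and all 8 were higher, against 26.0% of all tested genes. Their median was 1.26 (1.64 by limma-voom), and Sox10 and Gpr17 are among them. Summed over the 11, their level was 29.6 to 31.3 FPKM in controls against 87.6 to 91.5 FPKM in SETD4 OE. Of these, 3 stayed under a mean of 0.5 FPKM, and none was at 0 throughout. Of 8 astrocyte markers 7 were tested, and 6 of these rose and none fell. The 8 summed to 357 to 393 and 731 to 748 FPKM. The largest rise was in Aqp4. Of 8 ependymal markers 6 were tested, and 5 of these rose and none fell. The 8 summed to 22.8 to 27.1 and 54.0 to 71.9 FPKM, with the largest rise in Tppp3. The part of these cell types in the myelin gene values was not tested.

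Schwann cells and olfactory ensheathing glia also express Mbp, Mag and Mal. Of their 11 markers only 5 were tested, and 2 rose and 3 fell (4 and 3 when all genes with a read were tested). The 11 summed to 15.9 to 19.5 FPKM in controls against 13.8 to 14.9 FPKM in SETD4 OE. Foxd3, a factor of the neural crest lineage, was at 0 in all 6 libraries. Dhh, a Schwann cell signal, fell from 2.15 ± 0.341 to 0.160 ± 0.0673 FPKM, and Drp2 rose from 0.594 ± 0.125 to 1.66 ± 0.134 FPKM.

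The sums of the remaining marker lists were lower in SETD4 OE, and in each of them 1 abundant gene made up much of the sum. Sums without that gene were added after the values were seen. The 8 neuronal markers summed to 15.3 to 16.5 FPKM in controls against 4.92 to 5.79 FPKM in SETD4 OE, with 1 of 4 tested higher (Gad1) and 3 lower, the largest fall in Nefl. Without Nefl the other 7 summed to 7.69 to 8.44 and 4.48 to 5.10 FPKM. Markers of microglia and macrophages summed to 6.81 to 10.3 and 5.40 to 6.77 FPKM, with Cd68 the only one of 9 tested, and Cx3cr1, Aif1 and Ptprc under 0.1 FPKM in every library. Without Cd68 the other 8 were higher in SETD4 OE, at 1.06 to 1.32 and 1.97 to 2.38 FPKM. Endothelial markers summed to 3.90 to 4.28 and 1.22 to 1.48 FPKM, with Flt1 the only one of 7 tested, and Cldn5 was at 0 throughout. Without Flt1 the other 6 overlapped between the groups, at 0.595 to 0.716 and 0.600 to 0.817 FPKM. Markers of pericytes and fibroblasts summed to 32.2 to 36.7 and 21.5 to 25.4 FPKM. Of these 8 markers 4 were tested, and 3 rose, the most in Col1a1, and Acta2 fell. Without Acta2 the other 7 were higher in SETD4 OE, with a mean sum of 3.96 FPKM in controls and of 12.3 FPKM in SETD4 OE, or 3.10 times. The part of these cells in the myelin gene values was not tested.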

How the data were processed

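RNA-seq libraries of 3 control and 3 SETD4 OE samples were used. The submitters' processing notes name HISAT2 2.0.5 and genome build mm39. No counting tool, annotation release or strand setting is given in the sources used here. Each group has 1 table of FPKM values deposited by the authors, with a column for each library and one for gene length. Groups and replicate numbers came from the sample titles.

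Reads per gene were recovered by multiplying FPKM by length and dividing by the step of 1 read (100% whole within 0.05 reads). Values were transformed to log2(FPKM + 1), and 12994 of 55802 genes, those averaging 1 FPKM or more, were fitted by limma 3.58.1 (R 4.3.3) (mean-variance trend, two-sided, Benjamini-Hochberg over all tested genes, adjusted p under 0.05 called). No 2 libraries repeated each other (chi-square per degree of freedom of 3.89 to 16.3 within groups and 92.8 to 121 between them). No set test was run, and lists are given by counts and medians. The members and lists were chosen with earlier results of these data known. All members are named, with up to 3 called genes per direction from each pathway list, the largest rise and fall of each marker list, 8 fixed regulators and the 5 genes nearest to Myrf. Exceptions are marked in the text, apart from Setd4, Sox2, genes that overlap another gene and markers under 0.1 FPKM in every library. Alternatives were other filters, pseudocount 0.1, 4 other scalings, removal of mitochondrial and the 10 most abundant genes, limma-voom on recovered reads, a replicate block and leaving out each library. Upper quartiles were taken over the tested genes. Figures were drawn with matplotlib 3.10.9.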

Additional observations from a re-analysis of the deposited data

How the results depend on the processing

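All 9 genes stayed higher in SETD4 OE and past the threshold under each alternative that could test them, 143 values in all. The highest adjusted p was 0.04355 (limma), for Mobp with the replicate number as a replicate block. Log2 fold changes ran from 0.39 for Myrf with quantile normalization to 1.90 for Mog with limma-voom. The replicate block left 7 members and 6941 genes called, against 7790 without it. Deviations of same-numbered libraries correlated at -0.07, -0.23 and 0.08, and not every library correlated best with its own number. With 3 libraries per group, these correlations cannot decide whether the numbers pair the samples. With a mean of at least 5 FPKM, 1 member (Cnp) remained testable and was called, 63 list genes were called in place of 99, and 2 premyelinating genes in place of 5, because fewer genes were tested. Of the other named genes, 837 alternative values kept their call and 11 lost it, 10 of them for Chn2 and 1 for Sptlc2. None reversed. Depth limits Mog most, with 10 to 11 reads per control library.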

Other observations

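Several list genes too low for the main test had SETD4 OE values that all lay above the control values. The same held for 34.5% of all genes with a mean of 0.5 to 5 FPKM, the range of the genes described here. These were picked from the lists after their values were seen, and other low list genes separated in the same way. Fa2h, which makes the hydroxylated fatty acids of myelin galactolipids, was at 0.228, 0.340 and 0.230 FPKM in the controls and at 1.03, 1.07 and 0.938 FPKM in SETD4 OE. Ugt8a and Gal3st1, which also act in galactolipid synthesis, were higher too. The lipid list as a whole was mixed, with 6 of its 12 tested genes higher and 3 lower (Cers2, Elovl1 and Sptlc2). Zfp488, a zinc finger cofactor of OLIG2, was at 0.319, 0.463 and 0.570 FPKM and at 1.52, 1.81 and 1.28 FPKM, although Olig2 itself was lower. Lims2 was at 0.306, 0.260 and 0.390 FPKM and at 1.37, 1.35 and 1.73 FPKM. Gpr17 lies within the span of Lims2 on the opposite strand and also rose. It held 239 to 277 reads per control library and 1135 to 1246 per SETD4 OE library, against 14 to 19 and 64 to 88 for Lims2. No strand setting is given, so reads in a shared stretch cannot be assigned to Lims2 or Gpr17. Cldn19, a claudin of Schwann cells, was at 0.088, 0.120 and 0.265 FPKM and at 0.981, 0.860 and 0.704 FPKM. With all genes tested, their adjusted p was 0.001643 for Lims2 to 0.005147 for Zfp488 (limma).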
